A study of Mus musculus with 132 samples.

Results

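Pycr1 and 9 genes of the ATF4 stress response (Atf4, Ddit3, Trib3, Asns, Psat1, Phgdh, Mthfd2, Chac1 and Sesn2) were followed in single cells of mouse embryos. The 10 genes were taken by symbol from the 32245 genes of the count table, and all 10 were found. Pycr1 was picked for its higher level in trophectoderm-like (TE-like) cells treated with a miR-381-3p mimic, so its values in that comparison and in the 32-cell comparison that contains it are a description. The other 9 genes were chosen as known members of the same response, with results of these data already known.

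The embryos came from matings of C57BL/6 x DBA F1 mice (C57BL/6NCrl x DBA/2NHsd in the study's methods) and were cultured in KSOM medium from the 2-cell stage. Treated embryos received a synthetic mimic of miR-381-3p in the medium and control embryos a scrambled mimic at the same concentration, so both received a synthetic small RNA. The labels give 5 or 10 µM without tying a dose to a cell, and the study's text ties the higher dose to the 8-cell and the lower to the 32-cell stage, so dose and stage cannot be told apart. Cells were picked at the 8-cell stage (embryonic day 2.5; 30 control and 24 mimic cells) or the 32-cell stage (embryonic day 3.5; 39 control and 39 mimic cells), from 3 to 5 embryos per group and time point, and sequenced with Smart-seq2, a full-length single-cell protocol without molecular identifiers.

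The labels do not say which embryo a cell came from, so each group counts as 1 sample, no difference between groups was tested, and no interval covers differences between embryos. Intervals of levels and ratios are 95% intervals for counting error only, and those of shares of cells take the cells as independent. Levels are CPM, the counts of a gene in 1000000 counts, pooled over the cells of a group and without mitochondrial genes. A gene was called higher or lower when it reached 20 CPM in either group and differed by 2-fold or more on the log2(CPM + 1) scale, which understates the change of low genes. Total counts per cell ranged from 544866 to 3461022. At the 32-cell stage Y-linked transcripts outnumbered Xist in every one of the 39 control cells, while in the 39 mimic cells Xist outnumbered the Y-linked transcripts, 37 of them having no Y-linked count, so that treatment and Xist status cannot be told apart there. By the cell numbers in the titles the 32-cell cells form 3 blocks set apart by gaps of over 10 numbers, one of 24 control cells, one of 18 mimic cells and one of 36 cells that holds 15 control cells between 12 and 9 mimic cells. The cells of one treatment within a block are called a run here, which makes 2 control and 3 mimic runs. Of 10 markers of cumulus, granulosa, oviduct and blood cells, 0 reached 20 CPM in any group. The highest, Ovgp1, had 12.5 CPM in 8-cell control and 16.5 CPM in 8-cell mimic cells, and 1.74 and 1.31 CPM at the 32-cell stage.

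ATF4 is a transcription factor that is made when kinases phosphorylate the translation factor eIF2, as happens when amino acids run short, when proteins misfold in the endoplasmic reticulum, or when haem or double-stranded RNA is sensed. Much of its control lies in translation, so its mRNA level is an incomplete measure of its activity. With partners of the C/EBP family it binds C/EBP-ATF response elements and switches on amino acid synthesis and transport, tRNA charging, one-carbon metabolism and, under lasting stress, genes of cell death such as Ddit3. Pycr1 encodes the mitochondrial reductase that completes proline synthesis.

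The 300 bases from 250 before to 50 after each RefSeq start (GRCm38.p6) were searched on both strands for TGATGNAA, the core of such an element, because the 10 genes are grouped by this factor. It was found in Pycr1, Trib3, Asns and Chac1, 4 of the 10 genes, against 4.51% of 27025 gene symbols with a promoter in the table. The match is shown in capitals within 60 bases, 5′ to 3′ on the strand of the gene.

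Pycr1 (chr11:120643818-120643877, minus strand): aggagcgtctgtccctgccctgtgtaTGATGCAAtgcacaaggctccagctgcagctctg
Trib3 (chr2:152344013-152344072, minus strand): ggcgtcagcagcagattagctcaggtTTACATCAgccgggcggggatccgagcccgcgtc
Asns (chr6:7693199-7693258, minus strand): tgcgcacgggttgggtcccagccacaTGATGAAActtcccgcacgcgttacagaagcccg
Chac1 (chr2:119351023-119351082, plus strand): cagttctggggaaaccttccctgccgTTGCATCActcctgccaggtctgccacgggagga

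The Pycr1 match lay upstream of the start, at chr11:120643844-120643851, and the Asns match 23 to 16 bases before the start. In Chac1 the motif was on the opposite strand, 193 to 186 bases before the start, and in Trib3 on the opposite strand at bases 15 to 22 of the RefSeq transcript. The gene spans printed with the levels are those of GENCODE, whose starts differ, so that the Trib3 match lies outside and the Asns match inside the printed span. A related form, TGNTGCAA, chosen after the sequences were seen, was found in Pycr1, Trib3, Psat1, Chac1 and Sesn2, against 3.72% of symbols. Both forms were met by the same 8 bases in Pycr1 and in Chac1. A match of letters does not show that a factor binds there.

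The mature sequence that the mimic copies, miR-381-3p (chr12:109726870-109726891, plus strand, GRCm38.p6), has the seed, bases 2 to 8, in capitals.

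miR-381-3p: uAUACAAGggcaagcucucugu

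A full match to this seed followed by the base A, CTTGTATA, was present in the longest annotated 3′ UTR of 0 of the 10 genes, against 3.11% of 20775 genes. The 10 UTRs were between 81 bases (Atf4) and 1684 bases (Sesn2) long.

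At the 32-cell stage all 10 genes were at a higher level in mimic than in control cells. Of the 10, 6 were 2-fold or more higher (Pycr1, Ddit3, Trib3, Asns, Chac1 and Sesn2) and 0 were lower, where 6.87% of 7307 genes at 20 CPM were higher and 5.36% lower. Of the 6, Pycr1, Ddit3, Trib3 and Chac1 reached 20 CPM in mimic cells alone, so that the minimum admitted them through the group where they were high, and Pycr1 was picked for this rise. Among the 6 members at 20 CPM in both groups 2 were higher (Asns and Sesn2), against 2.87% of 6166 such genes. The median difference of the 10 was 1.09 in log2(CPM + 1), against 0.01 over all genes at the minimum. Sesn2, at 1.02, was the member just inside the 2-fold limit and Atf4, at 0.94, the member just outside it. A difference above 0 was found for 50.6% of all genes. The count of 6 was between 2 and 10 when 1 run was left out, the difference of Chac1 was -0.27 without the mimic run of 18 cells, and Sesn2 passed 2-fold in 7 of 16 alternatives. Within the block that holds both treatments (21 mimic and 15 control cells), a comparison chosen after seeing the data, 2 of the 10 genes were called higher (Pycr1, 2.94, and Trib3, 1.33, both at 20 CPM in mimic cells alone) and 0 lower, where 9.31% of 7280 genes were higher and 8.38% lower. Ddit3 and Chac1 were under 20 CPM there and could not be called. The median difference of the 10 genes in this block was 0.40, against 0.01 over all genes. Of the 10 genes 8 were above 0, and the difference of Chac1 was -1.47. Xist status was split by treatment within this block too.

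**Figure D1:**
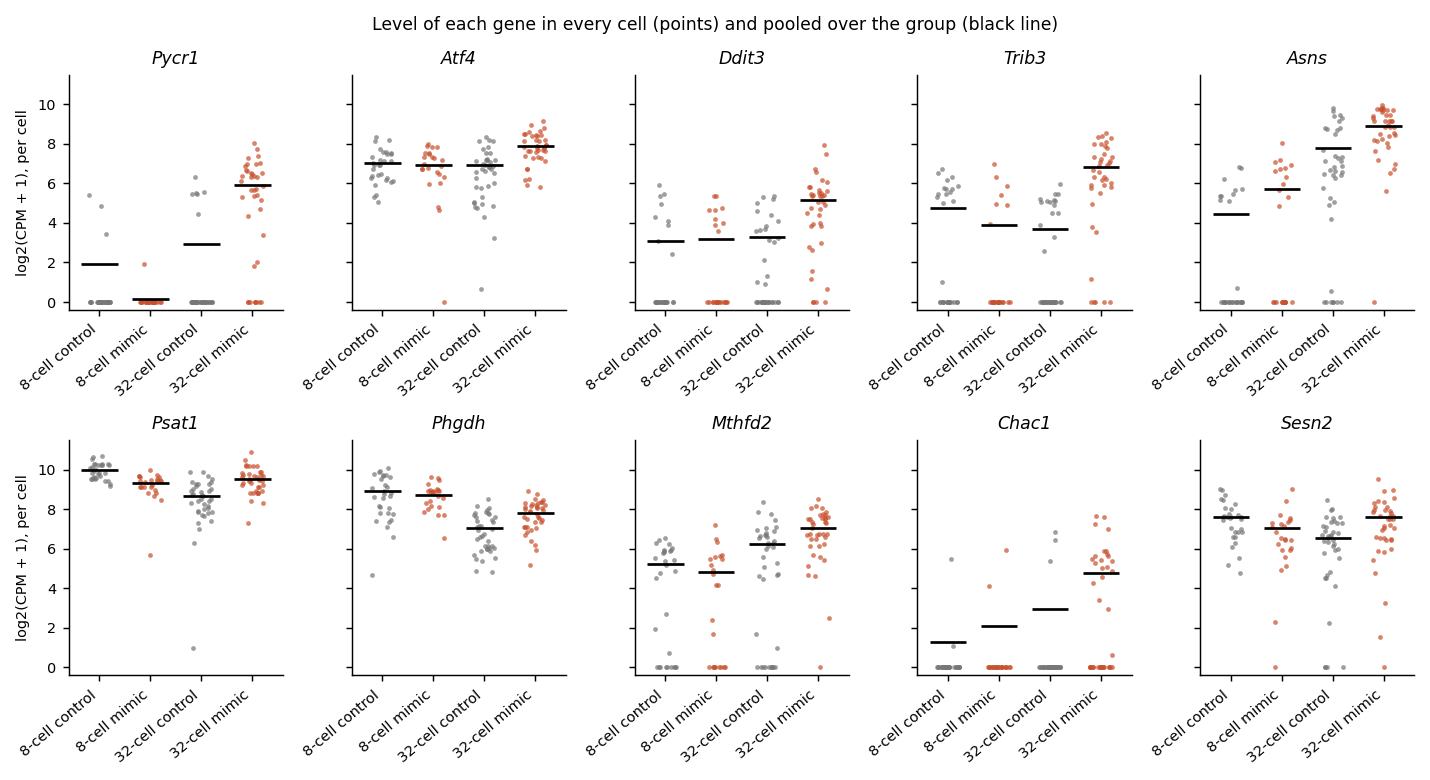
Level of the 10 genes in log2(CPM + 1), with a point for each of the 132 cells (grey, scrambled control; orange, miR-381-3p mimic) and a black line at the level pooled over the group. Pycr1 lies at 0 in most cells of the first 3 groups and above 0 in most 32-cell mimic cells, while Psat1, Phgdh and Atf4 are present in nearly every cell.

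Pycr1 (chromosome 11, 120635712 to 120643769, minus strand, GRCm38) was pooled at 2.75 CPM (95% interval 2.24 to 3.34) in 8-cell control cells and at 0.0971 CPM (0.02 to 0.284) in 8-cell mimic cells. A day later it was 6.63 CPM (5.97 to 7.33) without and 59.1 CPM (57.1 to 61.2) with the mimic. It had a count in 3 of 30, 1 of 24, 6 of 39 and 31 of 39 cells. The share at 32 cells was thus 15.4% without the mimic (95% interval 5.86 to 30.5) and 79.5% with it (63.5 to 90.7), and thinning every cell to 522178 counts left the same 6 and 31 cells. The highest 32-cell control cell was at 77.9 CPM, inside the range of the mimic cells, whose median was 51.9 CPM and whose highest was 258 CPM. The pooled ratio at 32 cells was 8.92 (8.02 to 9.95), and 29 of the 7307 genes had a larger log2 difference. At the 8-cell stage the 24 mimic cells held 3 counts, all in 1 cell, which makes a ratio to control of 0.0353 (0.00716 to 0.106), with both groups under 20 CPM.

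Atf4 (chromosome 15, 80255184 to 80257541) was pooled at 129, 123 and 122 CPM in 8-cell control, 8-cell mimic and 32-cell control cells and at 236 CPM (95% interval 231 to 240) in 32-cell mimic cells. Cells at the 32-cell stage ranged from 0.607 to 322 CPM with a median of 104.7 CPM in control, and from 55.0 to 578 CPM with a median of 224 CPM in mimic. The groups overlapped, and the difference of 0.94 in log2(CPM + 1) was under 2-fold.

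Ddit3 (chromosome 10, 127290774 to 127296288) encodes CHOP, a transcription factor of the late stress response. It was pooled at 7.43, 8.09, 8.67 and 35.2 CPM in 8-cell control, 8-cell mimic, 32-cell control and 32-cell mimic cells, and had a count in 18 of 39 control and 35 of 39 mimic cells at the 32-cell stage. The difference there was 1.91 in log2(CPM + 1), with the highest control cell at 39.7 CPM and the mimic median at 32.1 CPM. Its exons overlap those of Mars on the opposite strand by 68 bases, and the counting is not stated to use strand, so some reads cannot be assigned between them. Mars itself had 428 CPM without and 524 CPM with the mimic.

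Trib3 (chromosome 2, 152337422 to 152344032), a pseudokinase that binds ATF4, was pooled at 26.2 CPM in 8-cell control and 13.9 CPM in 8-cell mimic cells. Its 683 counts in 32-cell control cells give an interval of 11.1 to 12.9 CPM, against 114.5 CPM (111.6 to 117.4) under the mimic. Its difference of 3.15 at the 32-cell stage was the largest of the 10 genes in this comparison, a ratio of 9.54 (8.81 to 10.3). It had a count in 15 of 39 control cells, up to 61.6 CPM, and in 34 of 39 mimic cells, with a median of 93.1 CPM and a highest cell at 374 CPM.

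Asns (chromosome 6, 7675169 to 7693254), asparagine synthetase, was pooled at 20.5, 50.8, 217 and 482 CPM in the same order of groups. It was the single member called in the 8-cell comparison. Control cells at the 32-cell stage ranged from 0 to 893 CPM with a median of 102.5 CPM, and mimic cells from 0 to 982 CPM with a median of 487 CPM. The ranges were nearly the same and the medians were not.

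Psat1 and Phgdh, enzymes of serine synthesis, were called at neither stage between treatments. Psat1 (chromosome 19, 15904678 to 15947337) was pooled at 1021, 641, 408 and 745 CPM, a 32-cell difference of 0.87. Phgdh (chromosome 3, 98313170 to 98339990) was pooled at 477, 417, 132 and 222 CPM, a 32-cell difference of 0.75. Phgdh shares stretches of 50 bases with 20 annotated pseudogenes or unverified genes, up to 38.3% of its transcript positions with Gm7901, and the count table holds none of these, so its counts are uncertain.

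Mthfd2 (chromosome 6, 83305691 to 83325908), a mitochondrial folate enzyme, was pooled at 36.2, 27.1, 73.8 and 129 CPM. Its 32-cell difference was 0.80, with control cells up to 328 CPM and mimic cells up to 364 CPM. Chac1 (chromosome 2, 119351229 to 119354381), which breaks down glutathione, was pooled at 1.47, 3.33, 6.66 and 26.1 CPM. It had a count in 3 of 39 control and 21 of 39 mimic cells at the 32-cell stage. Sesn2 (chromosome 4, 132492032 to 132510501), a sestrin that restrains mTORC1, was pooled at 193, 129, 93.2 and 190 CPM, so that its 32-cell mimic level was close to that of 8-cell control cells.

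Per kilobase of merged exons, the order of the genes in 32-cell mimic cells began with Asns (176.3 CPM per kb) and Psat1 (175 CPM per kb), whose counting intervals overlap. Atf4 followed at 99.9 and Phgdh at 89.3 CPM per kb. Sesn2 (54.8) and Trib3 (53.9 CPM per kb) overlap in their intervals too, and Chac1 (15.9) and Pycr1 (15.0 CPM per kb) came last, also with overlapping intervals. Pycr1 was the lowest of the 10 in all 4 groups, with an interval that overlaps that of Chac1 in 8-cell control cells too. In 32-cell control cells Trib3 stood at 5.65 CPM per kb, next to Ddit3 at 5.06 CPM per kb.

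Taken cell by cell, the number of the 10 genes with a count was 4 to 8 with a median of 6 in 8-cell control, 3 to 8 with a median of 6 in 8-cell mimic, 4 to 9 with a median of 7 in 32-cell control and 6 to 10 with a median of 9 in 32-cell mimic cells. All 10 had a count in 19 of 39 32-cell mimic cells and in 0 cells of the other 3 groups. Chac1 had a count in 14 of 18, 5 of 12 and 2 of 9 cells of the mimic runs. The count of 19 thus rests largely on the run of 18 cells. Thinning each cell to 522178 counts left the medians at 6, 6, 7 and 9.

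At the 8-cell stage 7 of the 10 genes reached the minimum, with a median difference of -0.40, against 0.03 over all genes at the minimum. Of 7 genes at 20 CPM, 1 was higher in mimic cells (Asns, by 1.27) and 0 were lower, where 6.96% of 6570 genes were higher and 6.09% lower. The other 6, Atf4, Trib3, Psat1, Phgdh, Mthfd2 and Sesn2, had differences between -0.07 and -0.86, the lowest for Trib3. Of these, Phgdh was above 0 in 4 of 15 alternatives, Atf4 in 3 and Mthfd2 in 1. Asns had a count in 11 of 30 control and 12 of 24 mimic cells, up to 113.4 and 261 CPM. By cell number, 28 control cells form a run of their own (1 to 30). The 24 mimic cells (63 to 86) are followed by the other 2 control cells (87 and 88). Apart from these 2 cells, run and treatment cannot be told apart at the 8-cell stage. Xist status was mixed in both 8-cell groups. Among control cells 16 had Xist and no Y-linked count and 7 had Y-linked counts above Xist, and the median difference of the 10 genes between these, the first minus the second, was -0.31. Among mimic cells, with 3 and 8 such cells, it was 0.04. With Y-linked counts under 20 CPM taken as none, a limit set after the data were seen, the medians were -0.44 (23 and 7 cells) and -0.18 (11 and 8 cells). Within the Xist-only cells, and within the cells with more Y-linked transcripts than Xist, 0 of the 10 genes were higher and 1 was lower in mimic cells (Mthfd2 by -1.43 in the first, Sesn2 by -1.11 in the second), where 17% and 15.7% of all genes were higher and lower in the first, and 17.5% and 19.7% in the second. Pycr1, Ddit3 and Chac1 were under 20 CPM in both of these sets of cells, and Asns in the first, so they could not be called. How far Xist status enters the 32-cell difference was not tested.

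The stages were compared within each treatment, with the dose differing between stages as far as the study's text tells. In control cells 2 of 7 genes at the minimum were higher at the 32-cell stage (Asns by 3.34 and Mthfd2 by 1.01) and 4 were lower (Phgdh by -1.85, Psat1 by -1.32, Trib3 by -1.06 and Sesn2 by -1.04), where 30% of 7469 genes were higher and 20.1% lower. The control count of 2 was 1 with TMM factors and also without the control run of 15 cells, and the count of 4 lower was 1 without the run of 24 cells. In mimic cells 6 of 10 were higher and 0 lower, where 29.1% of 7594 genes were higher and 18.8% lower. At 20 CPM in both groups 2 of 6 members were higher (Asns and Mthfd2), against 17.5% of 5287 such genes. The 6 were Pycr1, Ddit3, Trib3, Asns, Mthfd2 and Chac1. Without the mimic run of 18 cells the difference of Chac1 fell from 2.64 to 0.55, under 2-fold, that of Ddit3 from 2.00 to 1.01 and that of Trib3 from 2.95 to 1.81. The Pycr1 ratio of 609 in mimic cells rests on the 3 counts at the 8-cell stage and has an interval of 208 to 2956.

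**Figure D2:**
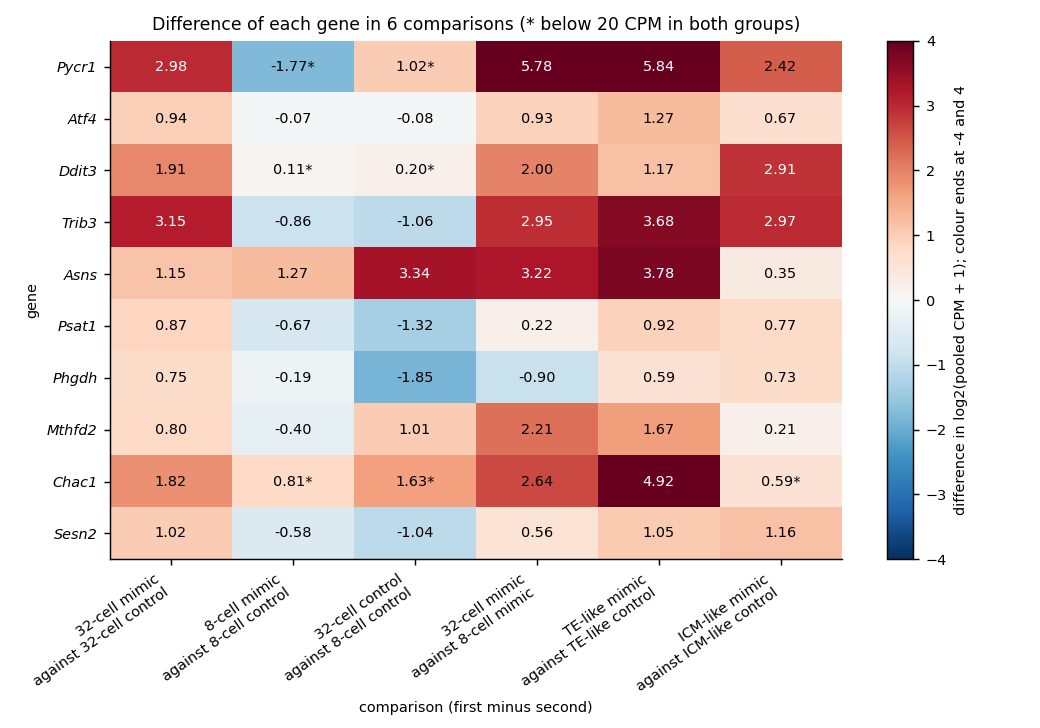
Difference of each gene in log2(pooled CPM + 1) in the 6 comparisons, first group minus second (red, higher in the first; blue, lower; asterisk, under 20 CPM in both groups). The column of the 32-cell comparison runs from 0.75 for Phgdh to 3.15 for Trib3, the 8-cell column from -1.77 to 1.27, and Asns reads 3.78 in TE-like but 0.35 in cells like the inner cell mass.

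The 32-cell cells were split into TE-like cells and cells like the inner cell mass (ICM-like) by clustering without the genes described here. Of the cells, 25 of 39 control and 12 of 39 mimic cells were ICM-like, and 14 control and 27 mimic cells were TE-like. Clusters from all genes also gave 25 and 12 ICM-like cells, and classes by marker score gave 25 and 17. By the mean over cells 8 of 9 ICM and 9 of 9 TE markers were higher in their own class, and by pooled CPM within each treatment 9 of 9 of both. None of the TE markers was among the 10 genes with the largest fold of the TE-like class, which were led by Zfp185 and Ago4, while 2 ICM markers were among those of the ICM-like class. Depth differed between treatments among TE-like cells, with a median total of 1770776 counts in control and 1256816 in mimic cells, and less among ICM-like cells, with 1172793 and 1115350 counts.

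In TE-like cells 8 of the 10 genes were 2-fold or more higher in mimic cells and 0 lower, where 12% of 7343 genes were higher and 7.74% lower. Pycr1, Ddit3, Trib3 and Chac1 again reached 20 CPM in mimic cells alone. Of the 6 members at 20 CPM in both groups 4 were higher (Atf4, Asns, Mthfd2 and Sesn2), against 5.16% of 5935 such genes. Pycr1, the gene chosen for this, had 0 counts in the 14 control cells and 56.2 CPM (95% interval 53.8 to 58.6) in mimic cells. By 3 cells of 14 the 0 counts allow up to 21.4% of control cells with a count (exact 95% limit 23.2%), taking the cells as independent. Set against 3 counts over the control group, the ratio was 456. That ratio is no lower bound across cells, since the highest ICM-like control cell reached 77.9 CPM. Pycr1 had a count in 21 of 27 mimic cells. Chac1 likewise had 0 counts in control and 29.3 CPM in mimic cells, with a count in 13 of 27, a ratio of 237 against 3 counts. Its difference of 4.92 was 2.21 without the mimic run of 18 cells described below. Asns had 35.05 CPM without and 495 CPM with the mimic, and its lowest mimic cell, at 47.7 CPM, lay above the control median of 22.98 CPM. Trib3 was at 7.64 and 110 CPM, Mthfd2 at 41.9 and 135 CPM, Atf4 at 99.4 and 241 CPM, and Sesn2 at 84.9 and 176.9 CPM. Without the control run of 24 cells the difference of Atf4 fell from 1.27 to 0.73 and that of Mthfd2 from 1.67 to 0.67. Sesn2 passed 2-fold in 9 of 17 alternatives, and Asns in all 17. Ddit3 was at 14.1 CPM in control and higher by 1.17, which was 0.16 without the mimic run of 18 cells and 0.79 without the control run of 15 cells. Psat1 and Phgdh were not called, with differences of 0.92 and 0.59. The count of 8 was 5 without the control run of 24 cells, and 5 without the mimic run of 18 cells.

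In ICM-like cells 9 of the 10 genes reached the minimum, and 4 of them were higher in mimic cells and 0 lower, where 10.9% of 7380 genes were higher and 9.89% lower. The 4 were Trib3 (15.3 and 126 CPM, a difference of 2.97), Ddit3 (4.58 and 40.8 CPM, 2.91), Pycr1 (11.6 and 66.4 CPM, 2.42) and Sesn2 (99.4 and 224 CPM, 1.16). Sesn2 was the single one of these at 20 CPM in both groups, where 6 members were, against 5.23% of 5933 such genes higher. All 377 counts of Pycr1 in 32-cell control cells were in 6 ICM-like cells. Asns was already at 353 CPM in ICM-like control cells and at 452 CPM in ICM-like mimic cells, a difference of 0.35, against 3.78 in TE-like cells. With the mean of log2(CPM + 1) over cells in place of pooled CPM, the count of 4 was 8, and under the other alternatives it was between 3 and 6. Without the mimic run of 18 cells the difference of Pycr1 in ICM-like cells was 0.65, under 2-fold. Whether any gene responded differently between the classes was not tested.

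**Figure D3:**
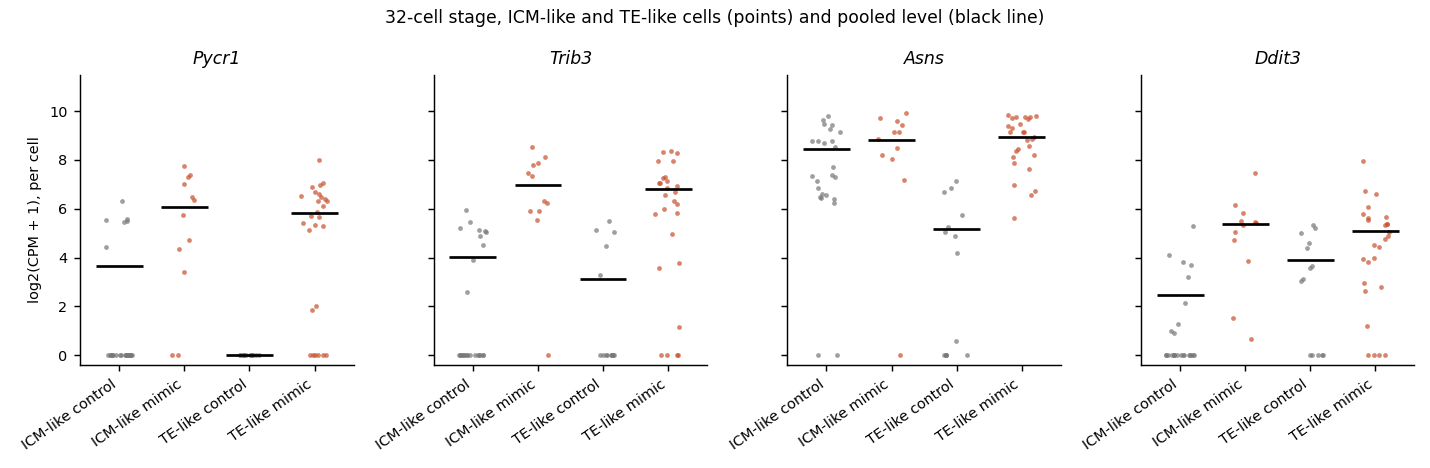
Pycr1, Trib3, Asns and Ddit3 in log2(CPM + 1) per cell of the 32-cell stage, by class and treatment (grey, control; orange, mimic), with a black line at the pooled level. Pycr1 is at 0 in all 14 TE-like control cells, and Asns is lower in TE-like control cells than in the other 3 classes.

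The runs of cell numbers differed as well. Control cells came from runs of 24 and 15 cells, and mimic cells from runs of 18, 12 and 9 cells. The labels do not say what a block or a run is. The block of 24 control cells and that of 18 mimic cells hold 1 treatment each, so there block and treatment cannot be told apart. For 8 of the 10 genes every mimic run was above both control runs, which was so for 16.8% of the 7307 genes. The 8 include Pycr1, picked for its rise, and Ddit3 and Trib3, which also reached 20 CPM in mimic cells alone. Of the members at 20 CPM in both groups, Atf4, Asns, Psat1, Phgdh and Sesn2 were so placed and Mthfd2 was not. No share was taken over all genes at 20 CPM in both groups. Mthfd2 and Chac1 were the exceptions. Mthfd2 stood at 108.1 CPM in its lowest mimic run and at 44.7 and 117.1 CPM in the control runs. Within the block of both treatments Mthfd2 had 117.1 CPM without and 114.2 CPM with the mimic (-0.04), and Chac1 16.6 and 5.33 CPM (-1.47). Asns (285 and 381 CPM, 0.42), Sesn2 (110.3 and 181.5 CPM, 0.71) and Atf4 (161.2 and 210 CPM, 0.38) were under 2-fold there. Pycr1 was at 3.02 and 29.9 CPM and Trib3 at 19.8 and 51.4 CPM. Ddit3 was at 7.87 and 17.3 CPM, under the minimum (1.04).

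The mimic run of 18 cells carried the highest level of several genes. Pycr1 was at 106.8 CPM there, with a count in 18 of 18 cells, and at 25.3 and 34.9 CPM in the other two mimic runs. Trib3 was at 217 CPM against 49.6 and 53.3 CPM, and Ddit3 at 64.5 CPM against 19.2 and 15.2 CPM. Chac1 was at 59.8 CPM against 7.34 and 3.16 CPM, and control runs were at 0 and 16.6 CPM. Psat1, Phgdh and Sesn2 were not set apart in this way, and Sesn2 and Phgdh were higher in another mimic run. Without this run, 2 genes (Pycr1, by 2.02, and Trib3, by 2.01) stayed past 2-fold, and the difference of Chac1 was -0.27. Without the control run of 24 cells 3 genes (Pycr1, Ddit3 and Trib3) were past it, and without that of 15 cells all 10 were. Median counts per cell were 1059702, 1523476 and 2157671 in the 3 mimic runs in this order.

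**Figure D4:**
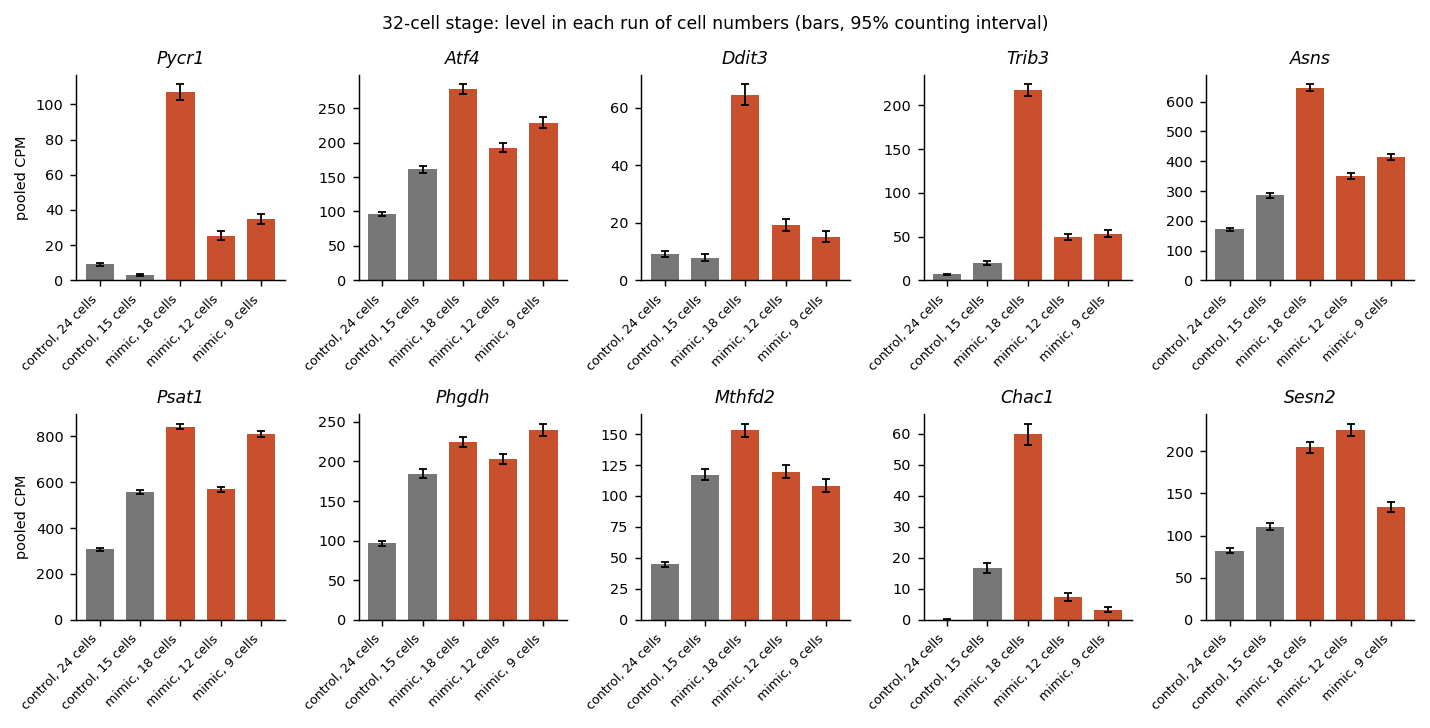
Pooled CPM of the 10 genes in each run of cell numbers at the 32-cell stage (bars from 0; grey, control; orange, mimic), with 95% counting intervals that do not cover differences between cells. The bar of the 18-cell mimic run is highest for 8 genes, at 106.8 CPM for Pycr1, and the mimic bars of Mthfd2 and Chac1 overlap the control bars.

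Other genes of the pathway were taken as lists. Of 54 genes upstream, beside or downstream of ATF4, 40 reached 20 CPM at the 32-cell stage, of which 7 were 2-fold or more higher and 1 lower in mimic cells (6.87% and 5.36% over all genes), and 31 had a difference above 0 (50.6% over all genes) with a median of 0.53. Of the other targets, 9 of 16 reached the minimum, all 9 were above 0 and 5 were past 2-fold, of which Ddit4, Slc38a2 and Slc7a5 reached the minimum in mimic cells alone. Of the 6 at the minimum in both groups 2 were past 2-fold, against 2.87% of 6166 such genes. The largest were Ddit4, which restrains mTORC1 (2.43 and 23.8 CPM, a difference of 2.85), the amino acid transporter Slc38a2 (7.14 and 27.8 CPM, 1.82) and Slc3a2, the heavy chain of amino acid exchangers (249 and 629 CPM, 1.33). Psph, the last enzyme of serine synthesis, was higher by 1.19 (29.5 and 68.7 CPM). Among 13 genes of tRNA charging and export, all 13 were above 0 and 1 was past 2-fold, the cysteinyl-tRNA synthetase Cars (95.1 and 204 CPM, 1.09), a share of called genes near that of all genes.

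Of 7 genes upstream of ATF4, 6 reached the minimum, and 2 of these were above 0. Eif2ak4, which encodes the amino acid sensor GCN2, was lower in mimic cells (37.6 and 7.79 CPM, -2.13), and Eif2ak3, which encodes PERK, was at 25.9 and 16.3 CPM. Eif2ak2, which encodes the double-stranded RNA sensor PKR, was under the minimum at 3.71 and 7.21 CPM, with a count in 5 of 39 control and 2 of 39 mimic cells. Among the other enzymes of proline metabolism 0 of 6 were called, where 6.87% of all genes were higher and 5.36% lower. Aldh18a1, which makes the precursor that Pycr1 reduces, was at 66.7 and 132 CPM, a difference of 0.98. Atf3, a transcription factor downstream of ATF4, had 0 counts in 32-cell control cells and 13.0 CPM in mimic cells, under the minimum of 20 CPM. Set against 3 counts over the control group, its ratio was 247, which is no lower bound across cells.

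Of 10 chaperones and other genes of the unfolded protein response of the endoplasmic reticulum, 8 were below 0, with a median of -0.74, where 50.6% of all genes were above 0. Edem1, a degradation factor, was the single gene called, with 143.02 CPM in control and 59.0 CPM under the mimic (-1.26), where 5.36% of all genes were lower. Hspa5, the chaperone BiP, was at 1983 and 1128 CPM (-0.81), and its level was lower in every mimic run (1001 to 1313 CPM) than in either control run (1741 and 2146 CPM). At the 8-cell stage 30 of the 54 pathway genes reached the minimum, and of these 0 were higher and 4 lower (Oat, Cth, Sars and Lars, named after their values were seen), against 6.96% and 6.09% of all genes.

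**Figure D5:**
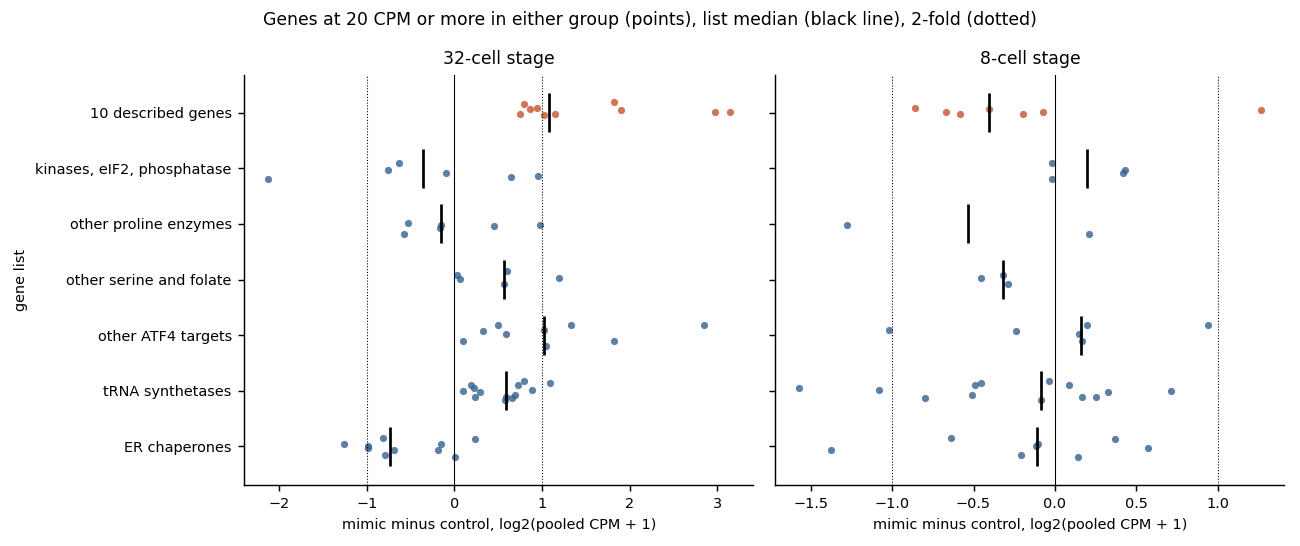
Difference of mimic minus control in log2(pooled CPM + 1) for genes at 20 CPM or more, by list, at the 32-cell stage (left) and the 8-cell stage (right), with a black line at the median of each list and dotted lines at 2-fold. At the 32-cell stage the median is 1.09 for the 10 genes and -0.74 for the chaperones, and at the 8-cell stage it is -0.40 for the 7 of the 10 genes at the minimum.

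Across the cells of each group, the 5 genes whose level followed Pycr1 most closely were Psmc5 (mean Spearman rho over the 4 groups 0.35), Cebpg (0.34), Fndc3a (0.32), Heatr1 (0.31) and Ly6g6e (0.31), of 8188 genes with a count in more than 33% of cells. These are weak relations, they rest on groups in which few cells had a Pycr1 count, and the cells share library preparation and depth. Cebpg encodes a partner with which ATF4 pairs on DNA, and its own level did not differ as Pycr1 did (71.6 and 63.6 CPM at the 32-cell stage). Within the 39 32-cell mimic cells rho with Pycr1 was 0.59 for Trib3, 0.43 for Asns, 0.39 for Ddit3 and -0.05 for Atf4. These cells pool runs that differ in level. Within the runs of 18, 12 and 9 cells rho with Pycr1 was 0.32, 0.40 and -0.06 for Trib3, 0.05, 0.19 and 0.14 for Asns, 0.19, -0.10 and -0.09 for Ddit3, and -0.61, -0.33 and 0.14 for Atf4. Over the 45 pairs of the 10 genes the median rho was 0.20 in those cells and 0.12 in the 39 control cells.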

How the data were processed

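The deposited table holds unnormalised expected counts, a row per gene and a column per cell. Per the labels the authors used STAR (version 2.5.1b) and RSEM (version 1.3.0) on mm10; all values are whole, so they appear to have been rounded. The study's filter (at least 3000 genes, under 10% mitochondrial counts) removed 0 of 132 cells. The 13 mitochondrial genes were left out, counts were pooled per group and scaled to CPM, and differences were taken in log2(CPM + 1), a pseudocount of 1. Counts carry exact Poisson and shares exact Clopper-Pearson 95% intervals. No test was run, as the labels name no embryo.

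The 10 genes and all lists were chosen with earlier results of these data known. All 10 genes are named. Other pathway genes were to be named as the 3 largest past 2-fold per list and direction in the 32-cell comparison; further ones are named for context after their values were seen. Classes came from Seurat (version 5.3.0 in R 4.3.3; 2000 variable genes, 25 components, odd-ranked genes, resolution 0.8), named from 9 ICM and 9 TE markers. Promoters are RefSeq (GRCm38.p6) and exons and UTRs GENCODE, on the same build as the counts but another annotation release. The call was also run on counts simulated from a pooled profile with counting error alone. Those counts hold no differences between cells, embryos or runs, so they give no error rate for the calls made here.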

Additional observations from a re-analysis of the deposited data

Results flagged for a closer look

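Trib3 differed in direction between treatments when the stages were compared. From the 8-cell to the 32-cell stage its level was lower in control cells, by -1.06 in log2(CPM + 1), and higher in mimic cells, by 2.95. The control difference was -0.39, under 2-fold, without the 32-cell control run of 24 cells. The difference between these was not tested, since each group counts as 1 sample. At the 8-cell stage its level was 26.2 CPM without and 13.9 CPM with the mimic.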

How the results depend on the processing

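At the 32-cell stage the count of the 10 genes that were 2-fold or more higher in mimic cells was 6, and it stayed within 1.5 times of that under 12 of 16 alternatives. It was 3 without the control run of 24 cells, 10 without the control run of 15 cells and 2 without the mimic run of 18 cells, which also turned Chac1 to -0.27. Within the block of cell numbers that holds both treatments, chosen after seeing the data, it was 2, and Chac1 was -1.47. In TE-like cells the count of 8 was 5 without the control run of 24 cells and 5 without the mimic run of 18 cells. In ICM-like cells the count of 4 was 8 with the mean of log2(CPM + 1) over cells. No gene at 20 CPM was 2-fold lower in these 3 comparisons under any alternative run; within that block Chac1 was under 20 CPM. At the 8-cell stage the count higher, 1, was 2 without the control run of 28 cells, 0 within the Xist-only cells and 0 within those where Y-linked transcripts outnumbered Xist. The count lower, 0, was 2 with the mean of log2 values, 1 with no minimum, 1 without the highest cell, 2 without the control run of 28 cells, 1 within the Xist-only cells and 1 within the others so split. The limit of 20 CPM for Y-linked counts, chosen after seeing the data, moved neither count by more than 1.5 times. From 8-cell to 32-cell control the count higher, 2, was 1 with TMM factors, 1 with median-of-ratios size factors, 1 with the mean of log2 values, 1 without the highest cell, 1 without the control run of 28 cells, 1 without the control run of 15 cells and 4 with no minimum, and the count lower, 4, was 1 without the control run of 24 cells. In mimic cells the count lower, 0, was 1 with TMM and 1 with median-of-ratios factors. Single genes kept within their counting interval in 475 values and moved beyond it in 443. The sign turned in 2 values of a called difference (Chac1, above), in 14 values of genes at 20 CPM that were not called and in 9 values of genes under it, and the cause was not tested. No paired analysis was possible because the numbers in the titles only name cells and no label gives an embryo. Thinning to equal depth left Pycr1 with a count in the same number of cells of each 32-cell group.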
